A study of Rattus norvegicus with 10 samples.

Results

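Trichostatin A (TSA) and sodium butyrate (NaB) are broad-spectrum inhibitors of histone deacetylases (HDACs), and the question here was which genes changed more with one of them than with the other. For each gene, the change with NaB (NaB-treated minus its own controls) was set against the change with TSA (TSA-treated minus its own controls), on the scale of log2(normalized count + 1). A positive difference means a larger rise or a smaller fall with NaB, and a negative one the reverse. All 10 libraries of the series were used, and 15717 of the 32883 genes listed had enough reads to be tested.

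The libraries are bulk RNA sequencing of primary cultures of cortical cells from Wistar rat pups, in which neurons and glia grow together. The group Control_TSA held 3 libraries and TSA_19h held 3, from cultures given 100 nM TSA on day 14 in vitro for 19 h without washout. Control_NaB held 2 libraries and NaB_24h held 2, from cultures given NaB on the same day in vitro for 24 h without washout. For NaB, the methods of the study give 5 mM and the sample labels 5 µM. No group carries a genetic change, and each experiment had its own time-matched untreated controls. The NaB experiment was a separate project, so drug, incubation time and project changed together and cannot be told apart. Neither experiment held both drugs, so no difference could be recomputed within a project. In bulk RNA, fewer cells of a type and less RNA per cell cannot be told apart either. The libraries held 26070908 to 27649249 reads, and 3 reads in a library are a floor of 0.109 to 0.115 CPM, which covers counting error only.

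HDACs remove acetyl groups from lysines of histones and other proteins, and their inhibition raises histone acetylation and changes transcription in both directions. TSA is a hydroxamate that binds the zinc ion in the catalytic site, whereas butyrate is a short-chain fatty acid that cells also take up and oxidize.

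Few genes were called for a difference between the changes with the inhibitors. With 3 TSA and 2 NaB libraries, a gene that was not called is not shown to change equally. At an adjusted p below 0.05 and an absolute difference of at least 0.5 (limma, Benjamini-Hochberg adjusted over all tested genes), 47 of 15717 genes were called, 0.299% of those tested. Of these, 43 (0.274%) had the lower change with NaB and 4 (0.0255%) the higher. By an unadjusted p below 0.05, 12.6% of the tested genes differed, and the drugs taken alone changed 42.3% (TSA) and 41.5% (NaB) of them. The study grew each control and treated pair on the same plate, and a fit with the pair as a block called 404 genes (2.57%), 291 lower (1.85%) and 113 higher (0.719%) with NaB. All 47 were among the 404. The median difference over all tested genes was -0.0028, with quartiles of -0.23 and 0.19. For a sense of the spread among pairs, the changes of both NaB pairs lay on the same side of all 3 TSA pairs in 38.1% of all tested genes. They lay above in 18.5% and below in 19.7%. The share for genes without a difference was not computed, so these values describe the spread only. The number of calls depended on single libraries. It fell to 3 and 1 without Control_NaB replicate 1 and 2, and to 6 and 17 without NaB_24h replicate 1 and 2. Without Control_TSA replicate 1 or 3 or TSA_19h replicate 3 it was 14, 20 and 21. The difference kept its sign in every one of the 10 fits without a library for all 47 genes, and 1 gene stayed called in each.

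**Figure D1:**
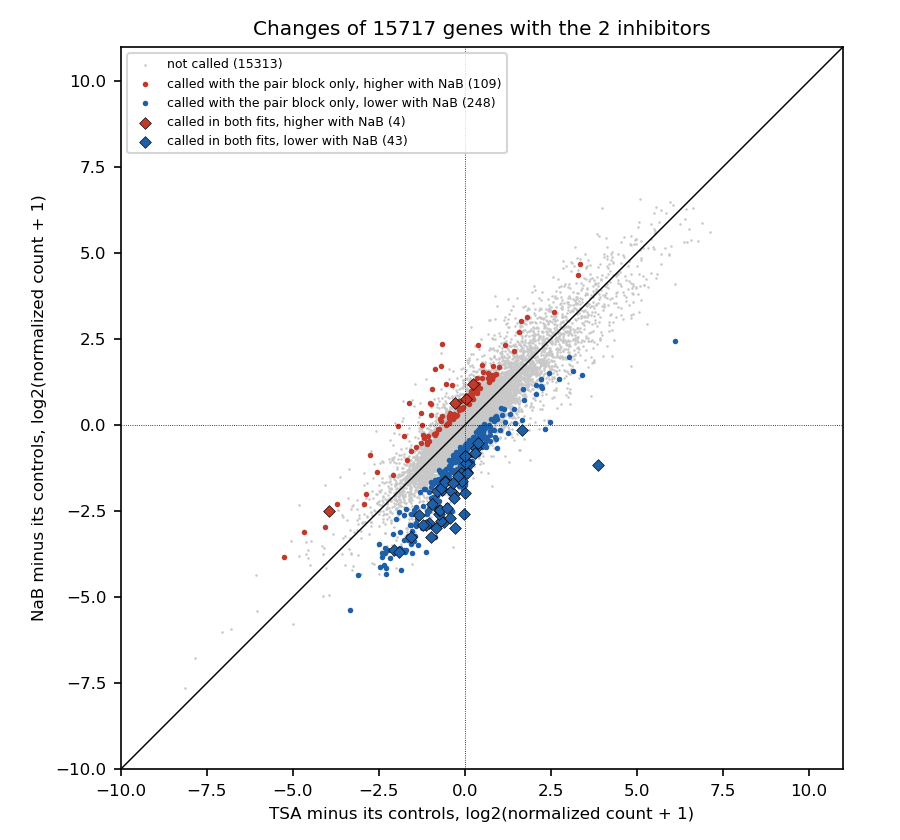
Each point is 1 of 15717 tested genes, with its change with TSA on the x axis and with NaB on the y axis, both in log2(normalized count + 1) against the drug's own controls. Red points were called higher and blue points lower with NaB, diamonds in both fits and dots only with the pair block, and the line marks equal changes. Blue points lie below the line and mostly below 0 on the y axis.

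The genes with the lower change with NaB were mostly genes that fell further with NaB than with TSA. Of the 43, 21 fell with both drugs by their own tests, 20 fell with NaB and were not called with TSA, 1 rose with TSA and fell with NaB, and 1 rose with TSA only. Their median change was -0.43 with TSA and -1.98 with NaB. These counts describe the genes that the difference itself selected. Relative to the mean of its own controls, the median of the 43 genes stood at 63.6%, 77.3% and 79.9% in the 3 TSA libraries and at 22.8% and 25.4% in the 2 NaB libraries. The untreated libraries of the experiments were close to each other for these genes, with control means within 0.25 (log2) in 38 of the 43. Of the 291 genes called lower with the pair block, 115 fell with both drugs, 103 fell with NaB and were not called with TSA, and 40 rose with TSA and were not called with NaB.

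The file lists genes by Ensembl identifier, and almost all genes that could be paired with a symbol (1830 of those tested) were upregulated, so 41 of these 43 genes have no name here. The gene with the smallest p was ENSRNOG00000022325. Its normalized counts were 1281, 1346 and 1269 in the TSA controls and 577, 729 and 685 with TSA, and 1221 and 1167 in the NaB controls and 131 and 121 with NaB. The NaB libraries lay far below all others, and the TSA libraries lay between them and the controls. The change was -0.97 with TSA and -3.24 with NaB, a difference of -2.26 (standard error 0.16, adjusted p = 0.000441, limma), and it was the gene that stayed called without each library. For ENSRNOG00000009789, the TSA controls held 1021, 1045 and 938, the TSA libraries 516, 672 and 641, the NaB controls 889 and 934, and the NaB libraries 168 and 159. Again no treated library overlapped a control, and the difference was -1.75 (standard error 0.17, adjusted p = 0.00471, limma).

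**Figure D2:**
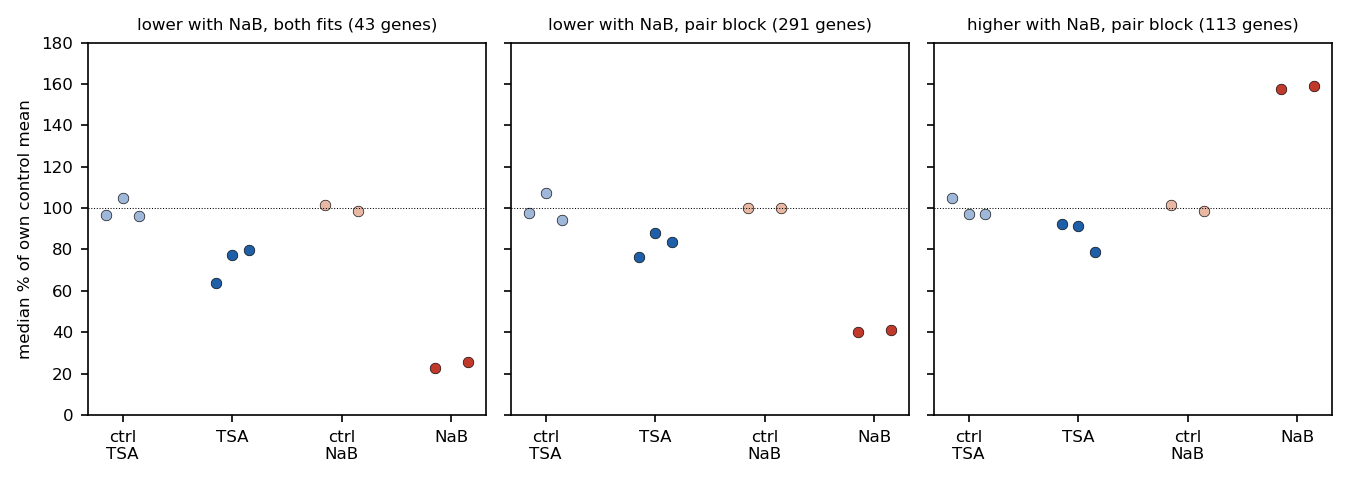
Each point is 1 library, and the y axis is the median, over the genes of a set, of the normalized count as a percent of the mean of the library's own controls. The 43 genes called lower in both fits stood at 63.6% to 79.9% with TSA and at 22.8% and 25.4% with NaB, and the 113 genes called higher with the pair block stood at 78.6% to 92.5% and at 158% and 159%, values that the choice of the genes fixes.

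The 4 genes with the higher change with NaB have no symbol either. Of them, 3 rose with NaB and were not called with TSA, and 1 fell with both drugs, less with NaB. ENSRNOG00000007387 held 1751, 1543 and 1840 normalized counts in the TSA controls, 1976, 1970 and 2145 with TSA, 1425 and 1214 in the NaB controls, and 3245 and 2797 with NaB. The NaB libraries were the highest of the 10, from the lowest controls, and the difference was 0.95 (standard error 0.15, adjusted p = 0.0343, limma). In ENSRNOG00000032328, the difference was 0.91 (standard error 0.15, adjusted p = 0.0343, limma). Its means were 1869 in the TSA controls and 1546 with TSA, and 1094 in the NaB controls and 1703 with NaB, a rise. The change with TSA was -0.27 (adjusted p = 0.0255, limma), a fall short of the minimum change and so not called. Both NaB libraries lay slightly above the TSA libraries, and its NaB controls lay below every other library. Among the 113 genes called higher with the pair block, 37 rose with NaB and were not called with TSA, 23 rose with both, 22 fell with TSA and were not called with NaB, 13 fell with both, and 1 fell with TSA and rose with NaB.

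Among genes with a symbol, 35 were called with the pair block, 10 higher and 25 lower with NaB. That is 0.546% and 1.37% of the 1830 named genes tested, near the shares of all tested genes (0.719% and 1.85%). Only LOC680227 and Scn4b of the 35 were also called without the block. The named genes had been listed because they rose, most of them with TSA. Their median change was 1.90 for TSA and 1.85 for NaB, with a median difference of -0.12, so each named gene below is set against that.

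Among metabolic genes that were not called in either fit, Slc16a3, the monocarboxylate transporter of lactate export, had a difference of 1.68 with a standard error of 1.14, and its control libraries spread from 8.35 to 156. Acss3, an acyl-CoA synthetase of short-chain acids, and Bdh2, a hydroxybutyrate dehydrogenase, had differences of -0.34 and -0.53. The 4 genes of fatty acid oxidation, such as the uncoupling protein gene Ucp2 (1.45) and the nuclear receptor gene Ppara (-0.38), held no call.

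Ccn2, which encodes the matricellular protein CTGF, a target of the YAP/TEAD factors, was on the NaB side. Its counts were 217, 189 and 176 in the TSA controls and 175, 250 and 372 with TSA, and 79.7 and 62.6 in the NaB controls and 319 and 407 with NaB. The TSA libraries overlapped their controls, while the NaB libraries lay far above their controls, which were lower than any library of the TSA experiment. The difference was 1.94 (standard error 0.36, adjusted p = 0.0232 with the pair block, 0.0717 without it, 0.000144 to 0.644 over the alternatives, limma and the other tools).

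Ctsz, a lysosomal cysteine protease, and Plagl1, an imprinted zinc finger transcription factor, rose with both drugs and further with NaB. Ctsz held 66.5, 131 and 54.4 in the TSA controls, 179, 279.5 and 109 with TSA, 56.9 and 91.9 in the NaB controls, and 335 and 399 with NaB. Plagl1 held 211, 189.5 and 283, then 1339, 1181 and 1608, then 199.8 and 184, and 1749 and 2077 in the same order. In both genes the controls of the experiments overlapped, and the NaB libraries lay above every TSA library. The mean of Ctsz rose 2.25-fold with TSA and 4.94-fold with NaB, and that of Plagl1 6.04-fold and 9.97-fold (differences of 1.16 and 0.71, adjusted p = 0.0364 and 0.0388 with the pair block, 0.457 and 0.288 without it, limma). Over the alternatives their adjusted p lay between 0.0326 and 0.682 and between 0.0173 and 0.571. In Tac1, the precursor gene of substance P, the TSA controls held 98.1, 86.5 and 75.7 and the TSA libraries 284, 228 and 276. The controls for NaB held 32.1 and 27.2 and the NaB libraries 240 and 162. The treated libraries overlapped, and the difference of 1.11 (standard error 0.25, adjusted p = 0.0461 with the pair block, 0.182 without it, 0.0394 to 0.721 over the alternatives, limma and the other tools) rested on the lower controls for NaB. Sctr, the secretin receptor, rose from 27.7 ± 5.75 (SD, n = 3) to 87.1 ± 12.9 with TSA and from 15.6 ± 1.38 (SD, n = 2) to 133 ± 9.30 with NaB, a difference of 1.39. Nxph4, a neurexophilin, reached 468 ± 47.6 (SD, n = 3) with TSA and 469 ± 44.7 (SD, n = 2) with NaB, from 46.6 ± 5.82 and 22.3 ± 7.95 in the controls. Slc30a2, a zinc transporter, had a difference of 1.35. Lbhd2 had one of 3.01, at 34.3 ± 2.22 (SD, n = 2) with NaB and 6.25 ± 2.98 in its controls, which held 4 and 8 reads. Its TSA controls held 30.6, 11.3 and 30.9 and its TSA libraries 28.1, 6.33 and 13.6. The gap between its controls (-1.74) was wider than that between treated libraries (1.27). Its adjusted p was 0.0197 with the pair block and 0.196 without it (limma). Sctr, Nxph4 and Slc30a2 were called by few alternatives (2, 1 and 1 of 30), and Lbhd2 by 5 of 27.

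**Figure D3:**
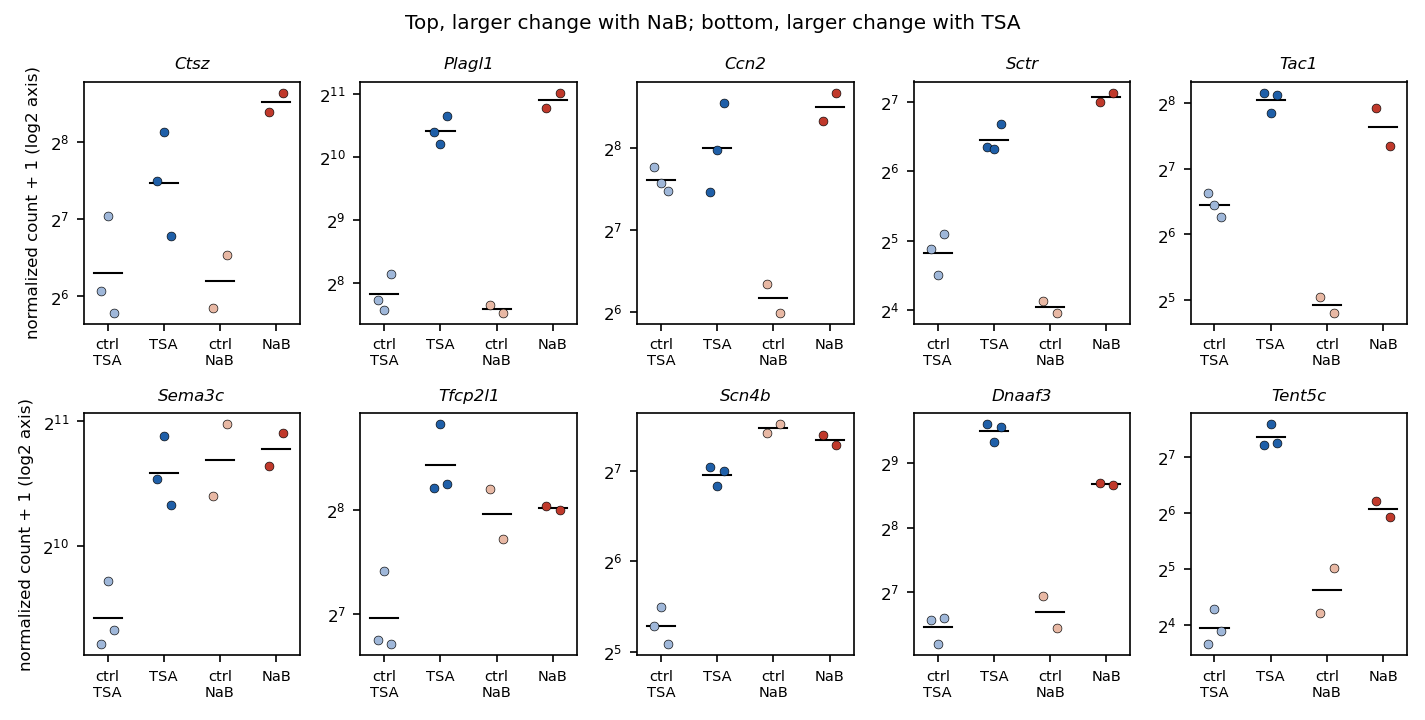
Points are libraries (3 for each TSA group, 2 for each NaB group), bars are group means of log2(normalized count + 1), and the y axis is on a log2 scale. In the upper row, both NaB libraries of Ctsz and Plagl1 lie above all TSA libraries, whereas those of Tac1 reach the TSA level from lower controls. In the lower row, the NaB controls of Sema3c already lie at the level of treated cultures, and those of Scn4b lie above it. The NaB controls of Tfcp2l1 lie around the level of its NaB libraries and below all its TSA libraries.

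In the named genes with the lower change with NaB, the gap between the untreated cultures of the experiments and the gap between the treated ones took part in different proportions, and in some, such as Nes (0.27 and -0.28) and Rhpn1 (0.54 and -0.61), they were of similar size. In 16 of the 25, the gap between the controls of the experiments was wider than the gap between the treated libraries. Scn4b, which encodes the beta-4 subunit of voltage-gated sodium channels, held 38.0, 44.3 and 33.1 in the TSA controls and 130, 113 and 126 with TSA. In the NaB experiment, it held 170 and 182 in the controls and 166 and 154 with NaB. The controls for NaB lay above even the TSA libraries. The change was 1.66 with TSA and -0.13 with NaB, and the difference of -1.79 was called without the block (standard error 0.25, adjusted p = 0.0182, limma). With all 5 control libraries as 1 group, its difference was 0.38. In that setting, 10 of the 35 named genes called with the pair block changed sign.

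Sema3c, a secreted semaphorin that guides axons, also had its lowest levels in the TSA controls. Its counts were 593, 842 and 640 in the TSA controls, 1485, 1884 and 1285 with TSA, 1354 and 2018 in the NaB controls, and 1601 and 1919 with NaB. It rose with TSA from a level below all NaB-experiment libraries, and the NaB libraries lay within the range of their controls (difference -1.08, standard error 0.14, adjusted p = 0.00563 with the pair block, 0.192 without it, 2.47e-07 to 0.860 over the alternatives, limma and the other tools). In Tfcp2l1, a transcription factor of the grainyhead-like family, the TSA controls held 107, 169 and 104, the TSA libraries 295, 453 and 304, the NaB controls 293 and 210, and the NaB libraries 261 and 256. The TSA controls lay below every other library. The TSA libraries lay above all libraries of the NaB experiment, the lowest of them (295) only just above a NaB control (293). The difference was -1.42 (standard error 0.20, adjusted p = 0.00817 with the pair block, 0.158 without it, 0.000152 to 0.623 over the alternatives, limma and the other tools). Dnah1, an axonemal dynein heavy chain, and Fam83b had means of 17.4 and 8.78 in the TSA controls, 79.7 and 52.3 with TSA, 75.4 and 34.3 in the NaB controls, and 70.3 and 37.1 with NaB. Flnc, which encodes the actin crosslinker filamin C, and Col12a1, a collagen of the fibril surface, varied together with the pair. Control_TSA replicate 2, at 788 and 449, was the highest of the TSA controls, the others being at 354 and 262 for Flnc and 179 and 149 for Col12a1. Their differences of -1.01 and -0.98 had standard errors of 0.61 and 0.59 without the pair block and 0.17 and 0.19 with it (adjusted p = 0.532 and 0.526 without, 0.0163 and 0.0286 with, limma), and the alternatives gave 0.000152 to 0.903 and 0.00292 to 0.958.

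In the other 9 genes, the treated libraries stood further apart than the controls. Dnaaf3, an assembly factor of axonemal dyneins, held 93.9, 72.1 and 96.0 in the TSA controls and 779, 642 and 756 with TSA. In the NaB experiment it held 121 and 85.6 in the controls and 413 and 402 with NaB. The controls overlapped and all TSA libraries lay above the NaB libraries. The rise was 8.31-fold with TSA and 3.94-fold with NaB, a difference of -1.06 (standard error 0.20, adjusted p = 0.0253 with the pair block, 0.144 without it, 0.00698 to 0.386 over the alternatives, limma and the other tools). Tent5c, a cytoplasmic poly(A) polymerase, rose 11.2-fold with TSA, to 148, 192 and 152, and 2.71-fold with NaB, to 72.8 and 59.8, from controls of 11.6 to 18.5 and 17.6 to 31.3 (difference -1.96, standard error 0.38, adjusted p = 0.0286 with the pair block, 0.0964 without it, 0.00641 to 0.334 over the alternatives, limma and the other tools). Gfra2, the receptor of neurturin, rose 2.11-fold with TSA and was at 0.901 of its control mean with NaB. Rasd1, a Ras-related GTPase, rose 4.18-fold with TSA and 1.90-fold with NaB, and Hltf, a DNA translocase of replication repair, rose 2.21-fold with TSA and had a ratio of 1.37 with NaB, short of the minimum change. Nes, the intermediate filament gene of neural progenitors, rose 2.08-fold with TSA and had a ratio of 1.45 with NaB, and Peg12, an imprinted gene, had ratios of 2.44 and 0.889. Lrriq1 and Rhpn1 complete the 9, with differences of -1.09 and -1.16.

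Of the other genes with the wider gap between controls, Rassf8, Rgl3, Fndc3c1 and Hs3st3b1, a heparan sulfate sulfotransferase, had differences of -0.63, -1.40, -3.67 and -1.55, and Fndc3c1 held only 0, 8.24 and 4.27 in the TSA controls. The rest included Hydin, a protein of the axoneme of motile cilia, Rreb1, a zinc finger transcription factor, Il17rd, an inhibitor of FGF signalling, and Mpp7, a scaffold of cell polarity. Hydin rose from 64.0 ± 5.73 (SD, n = 3) to 359 ± 54.5 with TSA and from 150.2 ± 20.4 (SD, n = 2) to 433 ± 50.6 with NaB, a difference of -0.94 with a treated gap of 0.27. LOC680227 (ENSRNOG00000037911) had the largest absolute difference of the named genes called, and of the 1830 named genes tested it was the only 1 called up with TSA and down with NaB or the reverse. Its TSA controls held 4.22, 2.06 and 2.13 and the TSA libraries 63.8, 34.4 and 69.0, whereas the NaB controls held 1795 and 2022 and the NaB libraries 662 and 1080. The experiments did not overlap at any point. The TSA controls held 4, 2 and 2 reads, so no fold between the controls is given. The change was 3.88 with TSA and -1.17 with NaB, a difference of -5.05 (standard error 0.49, adjusted p = 0.00471, limma). With all 5 control libraries as 1 group, it was 3.96.

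Written the other way, the difference is the gap between the treated libraries of the experiments minus the gap between their controls. Of the 47 genes, 44 (93.6%) had the wider gap between treated libraries, and the 3 exceptions include LOC680227 and Scn4b. Of the 404 genes called with the pair block, 273 (67.6%) had it. By direction, it was 219 of the 291 lower genes and 54 of the 113 higher ones. Split by symbol, 210 of 266 unnamed lower genes and 9 of 25 named ones had the wider gap between treated libraries. Symbols could be paired almost only for genes that rose, so the genes that fell with both drugs have no name here. All tested genes had control and treated gaps of similar size, with SDs of 0.45 and 0.45 (log2).

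**Figure D4:**
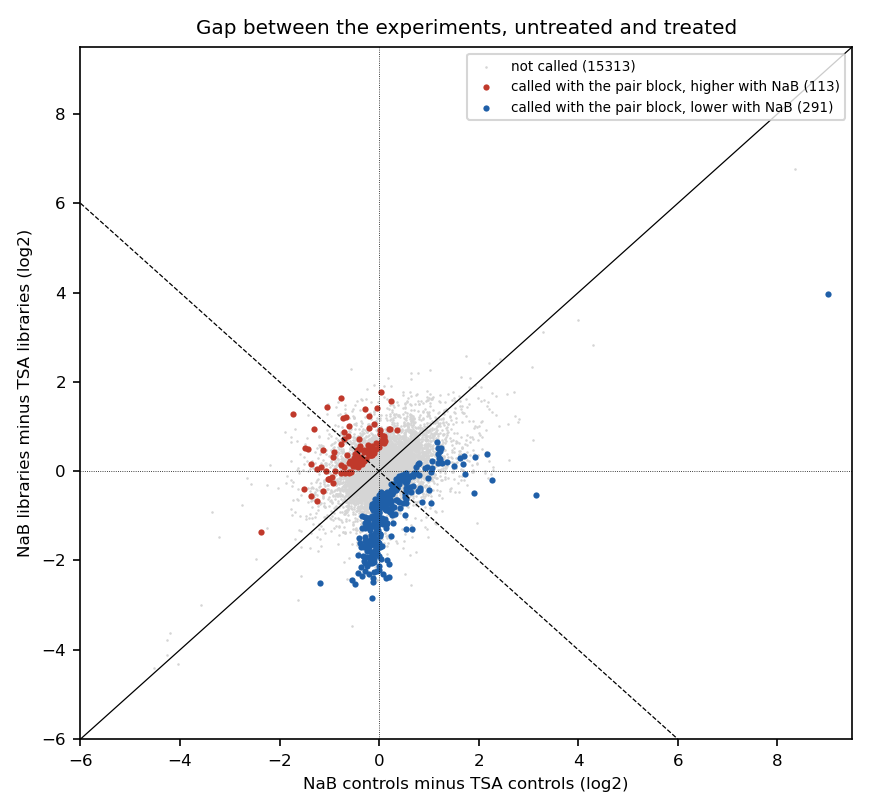
Each point is 1 of 15717 tested genes, the x axis is the mean of the NaB controls minus that of the TSA controls, and the y axis the same gap between NaB-treated and TSA-treated libraries, both in log2. On the solid line the changes with the drugs are equal, and the dashed line marks gaps of equal size and opposite sign. Of the 291 blue points, 169 lie within 0.25 of 0 on the x axis, and the isolated blue point at the right is LOC680227.

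The stretches around the transcription starts of Ccn2, Scn4b, Sema3c and Tfcp2l1 are shown as examples of genes called changed with one drug and not with the other, Ccn2 with NaB and the others with TSA. Other named genes met this too, such as Lbhd2 with NaB and Flnc and Gfra2 with TSA, so the 4 windows are a choice. They run from 250 bases before to 50 bases after the start, 5′ to 3′ in the direction of the gene, and come from RefSeq on build GRCr8, whereas the reads were mapped to Rnor_6.0. Capitals mark the GC box GGGCGG bound by Sp factors, the TATA box TATAAA and the TEAD motif GGAATG, each searched on both strands. None of these motifs is part of another. The Ccn2 window lies at chr1:22624565-22624864 on the minus strand, that of Scn4b at chr8:54343623-54343922 on the plus strand, that of Sema3c at chr4:18699578-18699877 on the minus strand and that of Tfcp2l1 at chr13:32286393-32286692 on the plus strand.
Ccn2: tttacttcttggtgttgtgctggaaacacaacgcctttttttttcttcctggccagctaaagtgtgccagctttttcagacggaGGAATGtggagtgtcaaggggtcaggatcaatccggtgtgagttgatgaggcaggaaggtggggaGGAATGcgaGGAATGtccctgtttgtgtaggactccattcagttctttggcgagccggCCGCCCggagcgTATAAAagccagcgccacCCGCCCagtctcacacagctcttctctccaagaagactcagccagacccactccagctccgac
Scn4b: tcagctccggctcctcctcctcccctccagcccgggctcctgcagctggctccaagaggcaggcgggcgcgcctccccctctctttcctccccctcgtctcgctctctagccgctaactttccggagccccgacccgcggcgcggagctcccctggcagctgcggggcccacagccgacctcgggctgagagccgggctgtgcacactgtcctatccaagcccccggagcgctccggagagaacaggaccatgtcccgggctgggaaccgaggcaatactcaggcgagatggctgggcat
Sema3c: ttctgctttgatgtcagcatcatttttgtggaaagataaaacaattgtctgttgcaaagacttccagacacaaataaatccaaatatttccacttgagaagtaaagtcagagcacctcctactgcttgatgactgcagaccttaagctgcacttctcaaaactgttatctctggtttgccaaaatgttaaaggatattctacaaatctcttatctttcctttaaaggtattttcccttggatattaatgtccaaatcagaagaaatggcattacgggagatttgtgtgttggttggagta
Tfcp2l1: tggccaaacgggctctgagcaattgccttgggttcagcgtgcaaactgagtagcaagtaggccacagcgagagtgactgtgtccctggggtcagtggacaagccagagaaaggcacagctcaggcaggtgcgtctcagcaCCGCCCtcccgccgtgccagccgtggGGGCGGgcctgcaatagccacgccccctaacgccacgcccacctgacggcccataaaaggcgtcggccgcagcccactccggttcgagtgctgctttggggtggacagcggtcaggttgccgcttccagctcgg
The Ccn2 window holds 3 TEAD motifs, 2 GC boxes and 1 TATA box, that of Tfcp2l1 2 GC boxes, and those of Scn4b and Sema3c none of these letters. The Scn4b window holds 24 CpG dinucleotides, that of Tfcp2l1 21 and that of Ccn2 12, while that of Sema3c holds 1, and the median is 7 over all 27457 RefSeq windows and 17 over those of named genes tested. Of all windows, 34.9% hold a GC box, 14.3% a TATA box and 13.9% a TEAD motif. For the genes with a symbol called with the pair block, windows were found for 7 of the 10 higher and 16 of the 25 lower genes. A GC box stood in 5 and 10 of these, against 61.3% of the windows of named genes tested, and a TEAD motif in 2 and 2. A match is a description of the letters, not of binding.

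The gene lists held 1824 genes in 54 functions, families and cell types. Symbols paired 298 of them, 14 lists had no paired member, and 22 lists had at least 5 tested members. No list member other than Scn4b was called without the block. With the block, 8 of the 298 paired members were called, a share near the 2.57% of all tested genes (1.91% of the named ones). Among the 8 were Ctsz and Tac1 on the higher side and Scn4b, Gfra2, Col12a1 and Nes on the lower. The list medians are given below beside -0.0028 for all tested genes and -0.12 for all named ones. The spread among pairs is the SD of a list's median change over the TSA pairs, combined with that over the NaB pairs.

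Developmental signalling ligands and receptors had medians below that of all named genes. Of 59 genes of the Wnt pathway, 26 were tested, and 26 were called up with TSA and 21 with NaB. The way genes were named fixes such counts, since 1787 and 1605 of the 1830 named genes were called up with the drugs, against 22.5% and 21.2% of all tested genes. The median difference was -0.44 and 21 of the 26 were below 0, compared with 58.2% of all named genes, but none was called. The changes of both NaB pairs lay below those of all 3 TSA pairs in 9 of the 26, compared with 19.7% of all tested and 22.4% of the named genes. The ligand gene Wnt5a held 130, 280 and 298 in the TSA controls, 610.5, 652 and 614 with TSA, 362 and 379 in the NaB controls, and 508 and 451 with NaB. Its NaB libraries lay between all controls and the TSA libraries, with a difference of -1.13 (standard error 0.40, adjusted p = 0.288 without and 0.0753 with the pair block, 0.0129 to 0.613 over the alternatives, limma and the other tools). For Wnt2, the difference was -1.25 (adjusted p = 0.252, limma). In the list of FGF, EGF and neurotrophin ligands and receptors, 14 of 16 tested genes were below 0 and the median was -0.50, with Gfra2 called with the pair block. Of 17 genes of the TGF-beta and BMP pathway, 14 were below 0 (median -0.30). The spread among pairs was 0.21 for the Wnt list, 0.42 for the FGF, EGF and neurotrophin list and 0.17 for the TGF-beta and BMP list.

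For immune genes, the median was -0.42 over 24 tested genes of interferon response and antigen presentation and -0.54 over 9 of cytokines, chemokines and NF-kB targets, with no call in either. The spread among pairs was 0.38 and 0.66, so the second median was smaller than its spread. The class I gene RT1-A1 held 520.5, 408 and 424 with TSA and 451 and 490 with NaB, from controls of 70.4 to 108 and of 117 and 156. In both lists the controls of the NaB experiment were higher than those of the TSA experiment (median gaps 0.66 and 0.56), and the treated libraries differed less (0.31 and 0.13). The same order held for Wnt genes (0.33 and -0.14) and for the named genes as a whole (0.21 and 0.082).

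**Figure D5:**
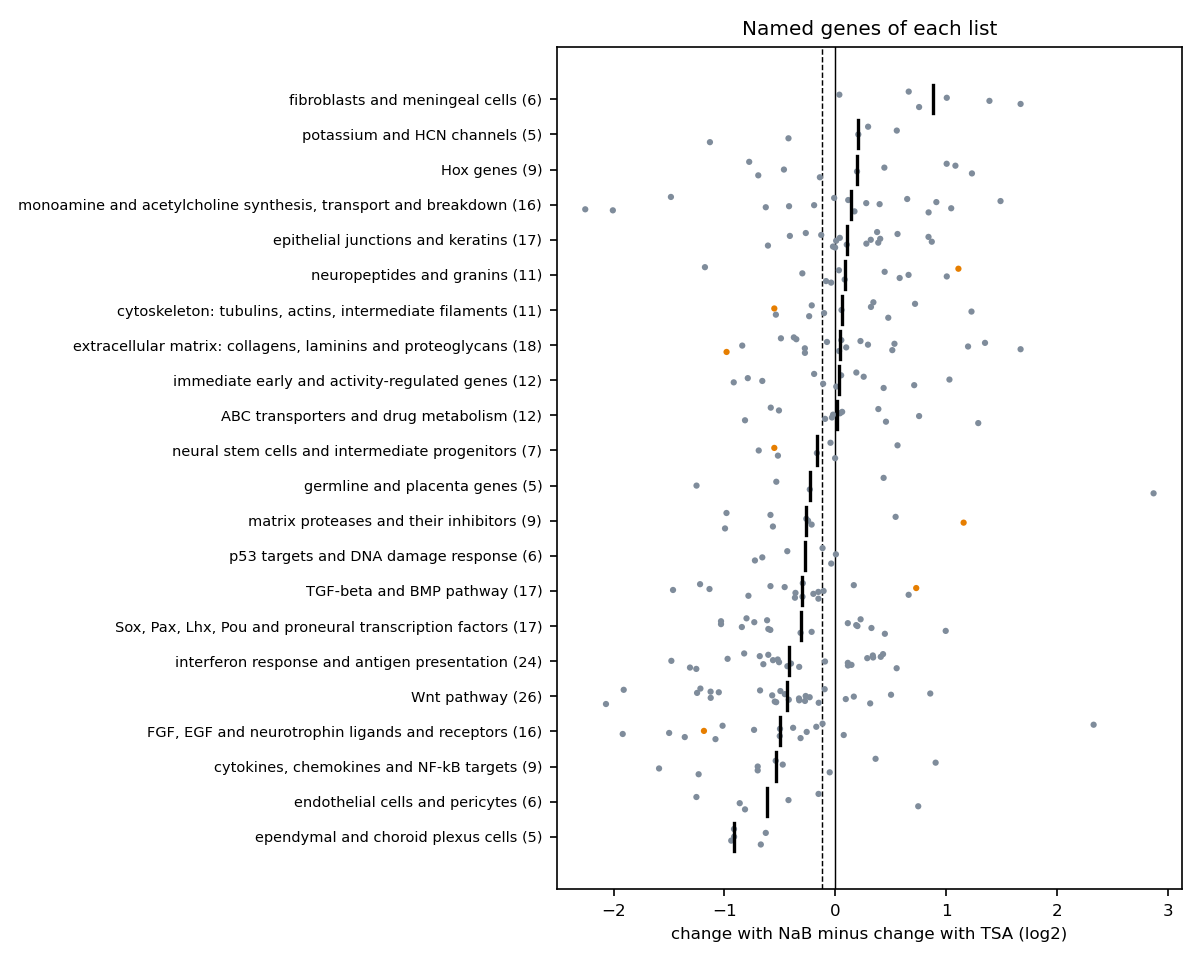
Each row is a list with at least 5 tested named genes, with the number tested in brackets, each point a gene and each thick bar the list median, and the x axis is the log2 difference between its NaB and TSA changes. Orange points were called with the pair block, the solid line is the median of all tested genes (-0.0028) and the dashed line that of all named ones (-0.12). All lists shown except the fibroblast and the ependymal markers hold genes on both sides of 0.

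Other families had medians near 0. These were the immediate early genes (0.031 over 12), the ABC transporters and drug metabolism (0.012 over 12), the extracellular matrix genes (0.044 over 18), the neuropeptides and granins (0.085 over 11) and the epithelial junctions and keratins (0.10 over 17). Within the immediate early genes, the members pointed both ways. Junb, an AP-1 subunit, held 3569 and 1363 with NaB and 1628, 1219 and 1972 with TSA (difference 1.03, adjusted p = 0.391), and Fosl2, another, held 63.3 and 37.6 against 93.8, 95.9 and 81.6 (difference -0.92, adjusted p = 0.354, limma). Of 16 tested genes of monoamine and acetylcholine metabolism, 9 were above 0 and none was called. Gch1, the enzyme that makes the cofactor of monoamine synthesis, had controls of 27.7 to 32.7 for TSA and of 13.5 and 11.5 for NaB and reached 282 to 419 and 320 and 313 (difference 1.05, adjusted p = 0.197 without and 0.0880 with the pair block, 0.0651 to 0.857 over the alternatives, limma and the other tools). Of the 9 tested Hox genes, 5 were above 0 (median 0.20), and their controls were near 0 reads, so that their differences depend on the pseudocount. With groups of at most 3 reads in every library set to 3 reads, the medians became 0.41 for Hox, -0.34 for Wnt, -0.35 for FGF, EGF and neurotrophins, -0.36 for interferon genes, 0.076 for the extracellular matrix and 0.068 for junctions and keratins.

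Markers of other cell types could be checked only in part. Only a single list member was tested for each of microglia, glutamatergic neurons and interneurons, and 1 gene cannot stand for a cell type. The microglial gene Tmem119 held 2.11, 1.03 and 5.33 in the TSA controls, 5.63, 4.52 and 1.94 with TSA, 1.04 and 2.09 in the NaB controls, and 15.1 and 11.6 with NaB. It was called up with NaB and not with TSA, and the test of the difference gave an unadjusted p of 0.0347 and an adjusted p of 0.355 (limma). Fezf1, the member tested of the list for glutamatergic neurons, held 3.16, 2.06 and 1.07, then 10.3, 4.52 and 3.89, then 0 and 1.04, and 9.45 and 14.5 in the same order (unadjusted p = 0.0351 and adjusted p = 0.356 for the difference, limma). Both NaB libraries of Tmem119 lay above all others, and those of Fezf1 overlapped the TSA libraries. For both genes, the changes of the NaB pairs lay above those of the TSA pairs, but the NaB controls held at most 2 reads, so the fitted sizes are not given. With groups of at most 3 reads set to 3 reads, the differences were 1.31 and 0.93. Pvalb, of interneurons, had a difference of -0.49. The part of such cells in the other differences was not tested. No marker of astrocytes, oligodendrocytes or their precursors and no pan-neuronal marker was paired with an identifier, so the labelled neuron cultures could not be checked against their defining markers. Of 22 fibroblast and meningeal markers, 6 were tested and all 6 had positive differences (median 0.88, and 0.71 with groups of at most 3 reads set to 3 reads, none called). The spread among pairs of these markers, 0.89, was as large as their median. Their summed counts were 1071, 80.3 and 1452 in the TSA controls, 1324, 1027 and 1294 with TSA, 234 and 168 in the NaB controls, and 1280 and 1426 with NaB. Col1a1, the collagen I gene and the most abundant of them, held 909, 47.4 and 1379 in the TSA controls, so that Control_TSA replicate 2 stood apart from the other 2. Its difference was 1.67 and not called (adjusted p = 0.694, limma), and without Control_TSA replicate 2 it was 3.18 and called. Over the alternatives, its adjusted p ran from 4.09e-05 to 0.948 and 2 of 30 called it, both of them without that library. No paired fibroblast marker was at 0 throughout, and the part of these cells in the differences of Ccn2 and the matrix genes was not tested. The 5 ependymal and choroid plexus markers all had negative differences (median -0.91, none called), but their spread among pairs, 1.41, was larger than the median. Their sums, led by the axonemal dynein gene Dnah11, were 69.6, 97.9 and 135 in the TSA controls, 363, 365 and 365 with TSA, 130 and 218 in the NaB controls, and 351 and 305 with NaB. Dnah1, Dnaaf3 and Hydin encode parts or assembly factors of the same motile cilia, and their relation to such cells was not tested. Of 6 endothelial and pericyte markers, 5 were below 0 (median -0.62, and -0.34 with groups of at most 3 reads set to 3 reads), and the 7 neural progenitor markers had a median of -0.17, with Nes called with the pair block. The spread among pairs was 0.34 and 0.25 for these lists.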

How the data were processed

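The deposited signal is 1 table of normalized counts. According to the processing notes and methods, the authors mapped reads to Rnor_6.0 with STAR 2.7.9a, counted them per gene with featureCounts 2.0.1 and divided each library by its median-of-ratios size factor (DESeq2 1.29). The strand setting of the counting is not given in the sources used here, so reads of overlapping, antisense or paralogous genes cannot be told apart. Dividing by each library's smallest value above 0 gave whole reads (tolerance 0.01) for 100% of the values. On these reads, edgeR's quasi-likelihood test with the deposited size factors called 45 genes for the difference.

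Genes were kept by edgeR's filterByExpr (minimum count 10, edgeR 4.0.16). The planned test was limma 3.58.1 (R 4.3.3) on log2(normalized count + 1), its prior variance following the mean level, with 10 libraries in 4 groups sharing 1 estimate of the spread. The contrast was (NaB_24h minus Control_NaB) minus (TSA_19h minus Control_TSA), two-sided, with Benjamini-Hochberg adjustment over all tested genes. This scale understates changes of low genes. The script was tested on simulated data. The methods describe the replicates as separate biological cultures, without saying which animals they share.

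Pairs came from the title numbers (TSA), the consecutive library names (NaB) and the methods, which place each pair on 1 plate. After removal of group means, pairs correlated across genes with r = 0.284, 0.392 and 0.314 for TSA. The 2 NaB pairs share 1 value, 0.342.

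Alternatives were DESeq2 1.42.0, edgeR with deposited size factors or TMM, limma with TMM, library totals, no filter, a mean of at least 50 counts, pseudocounts of 0.5 and 5, other minimum differences, the pair block, pooled controls and leaving out each library. Symbols came from the identifier and symbol columns of a supplementary table, whose readable rows hold upregulated genes (1911 identifiers, 81 of them below the filter), and no other column of it was used. The named genes are the called genes with a symbol, the 8 with the smallest p in each direction with the pair block, and up to 4 members per list. The other genes called with the pair block that have a symbol were named after their values were seen, and so were some list members given as examples, such as Acss3 and Bdh2. The members and lists were chosen with earlier results of these data known. Authors' fold changes were not used. RefSeq windows were matched by symbol. A few named genes that the rule selects are not reported here.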

Additional observations from a re-analysis of the deposited data

Results flagged for a closer look

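The changes with NaB and TSA differed past the thresholds in 47 genes, by a test of the difference itself (limma, Benjamini-Hochberg adjusted). Among them, LOC680227 had a difference of -5.05 and Scn4b of -1.79, both with untreated levels that differed between the experiments. The size for LOC680227 depends on the pseudocount, since its TSA controls held 4, 2 and 2 reads. ENSRNOG00000022325 (-2.26) and ENSRNOG00000009789 (-1.75) fell with both drugs, further with NaB. ENSRNOG00000007387 (0.95) and ENSRNOG00000032328 (0.91) rose with NaB from controls below the TSA controls. Groups of 2 and 3 libraries were too small for a formal test of single outlying libraries. How far the calls rest on 1 library is described by the fits without each library.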

How the results depend on the processing

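The number of genes called for the difference was 47. It was 404 with the pair as a replicate block, 250 with DESeq2, 422 with all 5 control libraries as 1 group, 71 with library totals and 31 without the filter on low counts. Chosen after seeing the data, edgeR and DESeq2 with the replicate block gave 424 and 437. It ranged from 1 to 45 without single libraries, and with the block and a pair left out it was 100, 478 and 413 (TSA pairs) and 79 and 102 (NaB pairs). Of the 404, 39 genes stayed called without each pair. DESeq2 and edgeR with TMM (55 genes) called all 47, and no filter called 30 of them. Of the 47, 43 were called with pooled controls. The share of genes with the wider gap between treated libraries was 93.6%, and 67.6% with the replicate block. With pooled controls the difference becomes the gap between treated libraries, and 40 of the 404 genes changed sign, 10 of them with a symbol. LOC680227 reversed to 3.96 and Scn4b to 0.38, and of the genes called only with the block, Tac1 went to -0.41, Sema3c to 0.19, Flnc to 0.18, Col12a1 to 0.082, Rgl3 to 0.11, Mpp7 to 0.083, Il17rd to 0.30 and Hydin to 0.27. The changes with TSA and NaB alone were called in 6644 and 6521 genes, and a minimum log2 difference of 1 gave 3416 and 3450. Leaving out libraries gave 6143 to 6753 with TSA and 5676 to 6578 with NaB. The replicate block moved these counts by less than 1.5 times. Of 836 list medians recomputed, 58 moved by more than the spread among pairs. The cause of these shifts was not tested. Pooling controls from both projects replaces each drug's own controls by construction, and without a library of the NaB experiment 1 arm holds a single library, assumed to vary like the other groups. At this depth, genes with about 3 reads or fewer in a group cannot be compared in fold.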
